A study of Mus musculus with 6 samples.

Results

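The genes described here encode the proteins of the mitochondrial ribosome, taken as every gene whose symbol begins with Mrpl or Mrps followed by a digit. They were 78 of the 25526 genes listed, 49 of them named for the large subunit (Mrpl) and 29 for the small subunit (Mrps). The line was MOC2, derived from a mouse oral carcinoma. Bulk poly(A) RNA was sequenced from p62 knockout cells made with CRISPR-Cas9 (3 libraries) and from parental cells with wild-type p62 (3 libraries). p62, encoded by Sqstm1, is an autophagy receptor. All cells grew in serum-containing medium with no added treatment, and the knockout cells are not described as clonal or as pooled. The comparison asked how transcript levels differ when p62 is knocked out.

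The mitochondrial ribosome translates the few mRNAs encoded by mitochondrial DNA, all of them for subunits of the respiratory chain and ATP synthase. Its rRNAs come from mitochondrial DNA, but all of its proteins are encoded in the nucleus, made in the cytosol and imported. Compared with bacterial ribosomes it has less rRNA and more protein, so many of its proteins have no bacterial homologue. The large subunit forms peptide bonds and holds the exit tunnel, which faces the inner membrane, and the small subunit binds mRNA and decodes it. The letter in the symbol does not always give the subunit: in mammalian structures Mrps30 and Mrps18a sit in the large subunit, and Mrps36 is a component of the alpha-ketoglutarate dehydrogenase complex.

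The libraries held between 32821860 and 41763980 exon reads, and each of the 78 genes had between 265 and 5074 reads in every library. Sqstm1 stood at 117, 589 and 125 CPM (reads per 1e6 exon reads, TMM-normalized) in the 3 knockout libraries, where the parental libraries had 1567, 1783 and 2103 CPM. The groups did not overlap (log2 fold change -2.71 ± 0.65, SE; edgeR adjusted p = 0.048), but the call was lost without any 1 library other than knockout replicate 2. Knockout replicate 2 kept 32.4% of the parental mean of Sqstm1, against 6.41% and 6.90% in the other two, and counts of called genes are given with and without it. Epithelial markers summed to between 5099 and 7898 TPM (reads per exon length, scaled to a fixed total) in knockout libraries and to between 4809 and 5760.3 TPM in parental libraries, led by Krt8, Krt18 and Krt19, while Krt5 and Trp63 stayed below 1 TPM throughout. Summed fibroblast markers reached at most 1.64 TPM in knockout and 5.48 TPM in parental libraries, and endothelial markers at most 0.365 and 0.638 TPM. Lum and Cd3e had 0 reads throughout. Of 5 leukocyte markers, 4 stayed below 1 TPM in every library, and the other, Cd68, accounted for nearly all of a sum of 5.26 to 8.03 TPM in knockout and 38.1 to 42.4 TPM in parental libraries.

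Most mitochondrial ribosomal protein genes stood somewhat higher in p62 knockout cells, though few of them passed the test. All 78 entered the fit. At an adjusted p below 0.05 (edgeR quasi-likelihood, adjusted over all genes tested), 4 of them were higher and 1 lower, leaving 73 that missed it. Over all 12775 genes tested, 3.48% were higher and 5.60% lower, so 4 and 1 of 78 are near the background. The 4 higher genes were Mrpl20, Mrpl49, Mrpl3 and Mrpl39, and the lower gene was Mrpl24, all of the large subunit. The median log2 fold change (p62 knockout over parental) was 0.32 over the 78 genes, against 0.02 over all genes tested. A positive sign was found for 64 of 78 (82.1%), against 51.7% of all genes tested. In bulk RNA, a change in the share of cells in a given state and a change in RNA per cell cannot be told apart.

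The 3 knockout libraries did not behave alike. In knockout replicates 1 and 3, 53 and 57 of the 78 genes lay above all 3 parental libraries, and 8 and 6 lay below them. In knockout replicate 2 the numbers were 31 above, 22 below and 25 within the parental range. Over all genes tested, the shares above the parental range were 38.9%, 33.5% and 39.4% in knockout replicates 1 to 3, and the shares below it were 37.5%, 35.2% and 37.9%. The 22 of 78 below the range in knockout replicate 2 (28.2%) are thus a smaller share than that of all genes. The median log2 difference from the parental mean was 0.40, 0.04 and 0.49 in knockout replicates 1 to 3, against -0.01, -0.06 and 0.10 in parental replicates 1 to 3. Knockout replicate 2 was the lowest of the knockout libraries for 66 of 78 genes (84.6%), against 49.0% of all genes tested.

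The count of called genes depended on single libraries. Without knockout replicate 2, 46 of the 78 were higher and 3 lower, where 23.0% and 23.2% of all genes tested were higher and lower. The 3 lower genes were Mrpl23, Mrpl24 and Mrpl38. Without parental replicate 1, 2 genes were higher and 0 lower, against 0.968% and 2.15% of all genes tested. In the other settings that left out a library, few genes of the whole table were called, so counts of the 78 carry little information there. Without knockout replicate 1, edgeR called 0 of the 78 and 0.300% of all genes, while 15 of the 78 and 19.9% of all genes had an unadjusted p below 0.05. Without knockout replicate 3 it called 0 of the 78 and 0.231% of all genes, with 12 of the 78 and 19.8% of all genes at an unadjusted p below 0.05. Without parental replicate 2 it called 0 of the 78 and 0.00% of all genes (0 of 12924), with 15 of the 78 and 19.3% of all genes at an unadjusted p below 0.05. Without parental replicate 3 it called 0 of the 78 and 0.813% of all genes, with 27 of the 78 and 26.1% of all genes at an unadjusted p below 0.05. With all 6 libraries, 30 of the 78 had an unadjusted p below 0.05, against 32.5% of all genes tested. DESeq2 with all 6 libraries called 17 higher and 3 lower, against 11.6% and 11.0% of all genes, and limma-voom called 3 higher and 1 lower, against 2.68% and 5.45% of all genes. The groups did not overlap for 26 genes that were higher in all knockout libraries and 3 that were lower in all of them, where the shares of all genes were 17.2% and 19.0%.

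**Figure D1:**
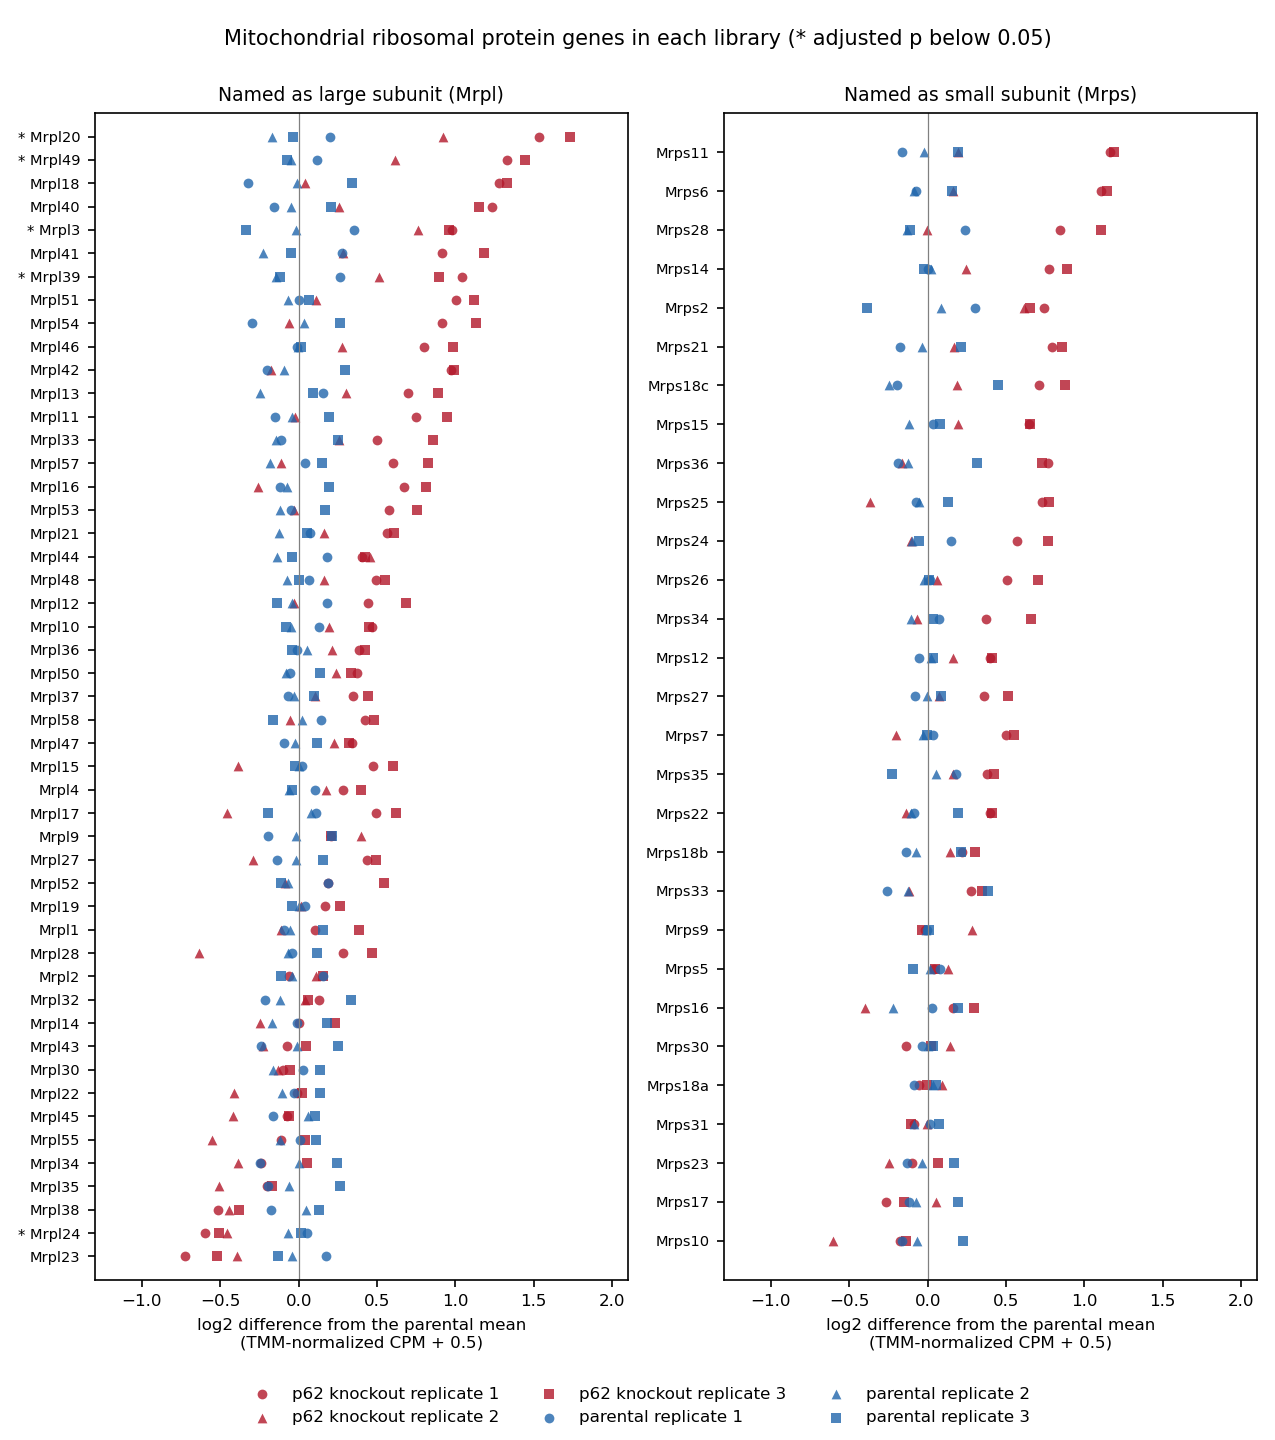
Each row is a gene and each point a library, placed by its log2 difference from the parental mean (TMM-normalized CPM plus 0.5), with knockout libraries in red, parental libraries in blue and genes ordered by log2 fold change. Knockout replicates 1 and 3 lie together to the right for most genes, while knockout replicate 2 lies nearer to the parental points, and 5 large subunit genes carry a star for an adjusted p below 0.05.

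Mrpl20 showed the highest fold change of the 78. It encodes the homologue of bacterial L20, an rRNA-binding protein that in bacteria joins the large subunit early in its assembly. Mrpl20 (ENSMUSG00000029066) stood at 54.3, 35.3 and 62.3 CPM in knockout libraries, against 21.3, 16.3 and 18.0 CPM in parental libraries. All 3 knockout libraries were above all parental ones, with replicate 2 the lowest of them. It rose 2.73-fold, a log2 fold change of 1.45 ± 0.24 (SE; edgeR adjusted p = 0.0224). The call was lost in 4 of 14 other settings, those without knockout replicate 1 or 3 or parental replicate 2 or 3, with an adjusted p of up to 0.128.

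Mrpl49 encodes a large subunit protein with no bacterial homologue. It stood at 74.7, 45.4 and 80.9 CPM in knockout libraries, against 32.1, 28.5 and 28.0 CPM in parental libraries (ENSMUSG00000007338). It was 2.27-fold higher (log2 fold change 1.18 ± 0.23, SE; edgeR adjusted p = 0.032), again with knockout replicate 2 between the parental libraries and the other knockout libraries. The call was lost in 6 of 14 settings, with an adjusted p of up to 0.16.

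Mrpl3 encodes the homologue of L3, whose long extension reaches towards the peptidyl transferase centre. Its levels were 66.3, 56.9 and 65.4 CPM in knockout libraries, against 42.8, 33.0 and 26.3 CPM in parental libraries (ENSMUSG00000032563). Here knockout replicate 2 lay close to the other knockout libraries, and the parental libraries were the more spread out. It rose by 0.89 ± 0.20 on the log2 scale (SE; edgeR adjusted p = 0.0414), a call lost in 5 of 14 settings. Mrpl39 encodes a protein without a bacterial ribosomal homologue that is related to threonyl-tRNA synthetase. It had 45.0, 31.1 and 40.7 CPM in knockout libraries, against 26.0, 19.5 and 19.9 CPM in parental libraries (ENSMUSG00000022889). It rose by 0.83 ± 0.20 on the log2 scale (SE; edgeR adjusted p = 0.0468), the call nearest to the threshold and one lost in 8 of 14 settings.

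Mrpl24 was the called gene that fell. It encodes the homologue of L24, which lies at the rim of the polypeptide exit tunnel. Mrpl24 (ENSMUSG00000019710) stood at 46.3, 51.3 and 49.4 CPM in knockout libraries, against 73.2, 67.3 and 71.1 CPM in parental libraries. Both groups were tight and did not overlap, and knockout replicate 2 was the highest knockout library by a small margin. It was 1.44-fold lower (log2 fold change -0.53 ± 0.12, SE; edgeR adjusted p = 0.0422), a call lost in 7 of 14 settings with an adjusted p of up to 0.198. Unique exon reads made up 85.7% of its reads, and an exon of Rrnad1 on the other strand overlaps it in the GENCODE M21 annotation, so reads of that gene can be told apart only if counting used strand, which is not stated. With unique reads alone its call was kept. Each of the 5 calls was lost when knockout replicate 1 or 3 or parental replicate 2 or 3 was left out, and those of Mrpl49, Mrpl39 and Mrpl24 also without parental replicate 1. In the first 4 of these settings, under 1% of all genes were called, and the fold changes kept much of their size: leaving out each library gave log2 fold changes of 1.28 to 1.64 for Mrpl20 and -0.57 to -0.47 for Mrpl24.

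**Figure D2:**
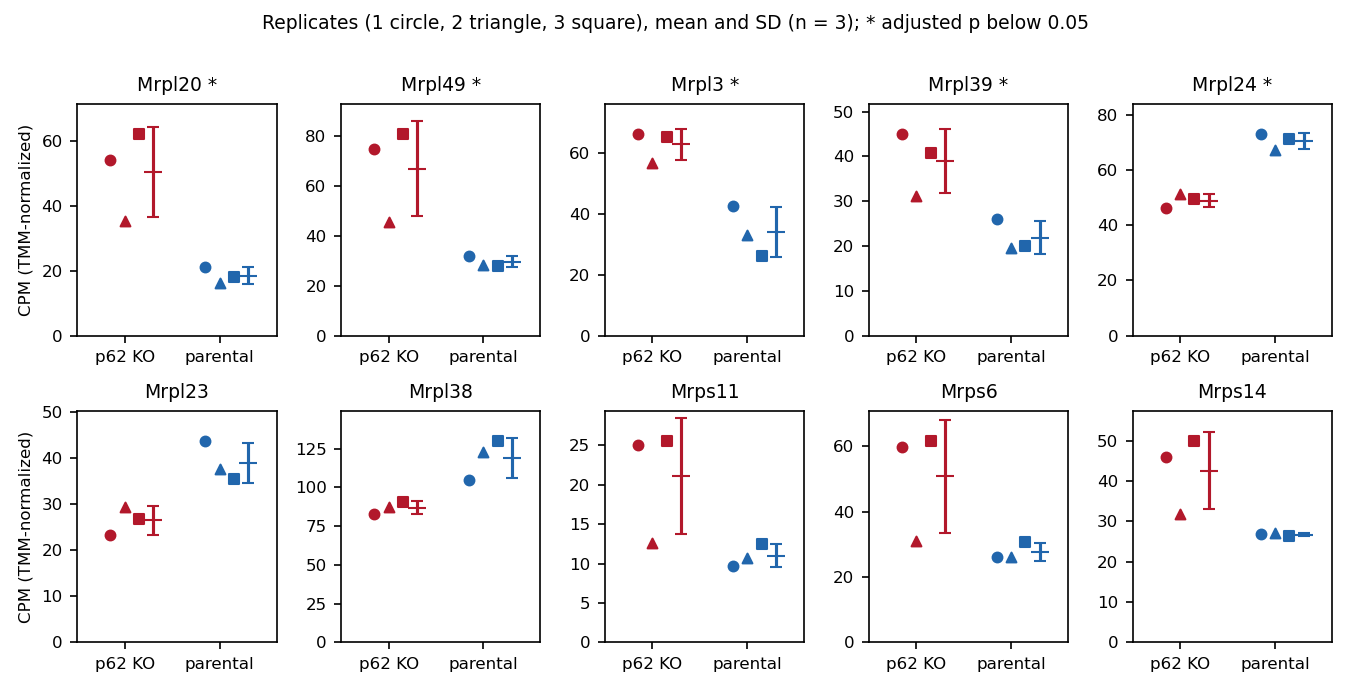
TMM-normalized CPM of 10 genes in each library (circle, triangle and square for replicates 1, 2 and 3), with knockout libraries in red at the left of each panel, parental libraries in blue, and the mean and SD (n = 3) beside the points. Mrpl20 spans 35.3 to 62.3 CPM in knockout and 16.3 to 21.3 CPM in parental libraries, whereas Mrpl24, Mrpl23 and Mrpl38 lie lower in all 3 knockout libraries.

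The stretches upstream of these 5 genes are shown because the genes passed the test, so that their promoters can be set side by side. Each line gives the 250 bases before the annotated start (RefSeq, GRCm38.p6), 5′ to 3′ on the strand of the gene. Capitals mark a match, on either strand, to one of 5 short motifs. The motif of ETS factors was searched as CCGGAAG. That of NRF1, a regulator of nuclear genes for mitochondrial proteins, was searched as GCATGCGC. The YY1 motif was AAGATGGCG, the E-box was CACGTG, and for the TATA box the letters TATAAA were used. None of the 5 motifs contains another. The windows are chr4:155802628-155802877 (plus strand), chr19:6057756-6058005 (minus strand), chr9:105053018-105053267 (plus strand), chr16:84735245-84735494 (minus strand) and chr3:87919294-87919543 (plus strand).
Mrpl20: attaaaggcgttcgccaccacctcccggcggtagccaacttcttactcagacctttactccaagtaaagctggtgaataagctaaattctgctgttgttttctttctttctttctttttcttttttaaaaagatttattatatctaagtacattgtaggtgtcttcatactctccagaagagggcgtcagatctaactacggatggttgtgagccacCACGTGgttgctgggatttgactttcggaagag
Mrpl49: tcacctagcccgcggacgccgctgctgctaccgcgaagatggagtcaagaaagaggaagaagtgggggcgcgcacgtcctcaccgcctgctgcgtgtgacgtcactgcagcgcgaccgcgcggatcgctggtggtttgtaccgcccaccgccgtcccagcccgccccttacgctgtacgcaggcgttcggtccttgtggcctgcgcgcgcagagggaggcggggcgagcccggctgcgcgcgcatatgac
Mrpl3: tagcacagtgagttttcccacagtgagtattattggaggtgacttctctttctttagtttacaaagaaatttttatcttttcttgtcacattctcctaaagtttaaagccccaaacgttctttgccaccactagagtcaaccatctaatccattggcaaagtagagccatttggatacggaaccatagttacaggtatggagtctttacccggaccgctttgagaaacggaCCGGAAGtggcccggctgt
Mrpl39: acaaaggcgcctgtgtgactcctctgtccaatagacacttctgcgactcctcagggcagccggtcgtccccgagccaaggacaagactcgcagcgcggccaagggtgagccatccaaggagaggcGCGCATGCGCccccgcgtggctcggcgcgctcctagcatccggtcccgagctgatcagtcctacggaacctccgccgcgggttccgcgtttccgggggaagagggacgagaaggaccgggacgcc
Mrpl24: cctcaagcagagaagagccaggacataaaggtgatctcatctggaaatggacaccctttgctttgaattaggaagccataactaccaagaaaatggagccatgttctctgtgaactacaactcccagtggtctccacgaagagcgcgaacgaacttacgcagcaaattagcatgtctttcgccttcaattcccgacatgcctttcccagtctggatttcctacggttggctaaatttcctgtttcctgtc
Mrpl20 holds an E-box, Mrpl3 an ETS match and Mrpl39 a palindromic stretch that matches NRF1 on both strands, whereas Mrpl49 and Mrpl24 hold none of the 5. No motif was shared by any 2 of them.

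A promoter window of 300 bases, from 250 before to 50 after the start, was found for 69 of the 78 genes. The ETS motif was in 26 of the 69 windows (37.7%), against 9.93% of all 27025 genes with a window and 20.0% of the tested genes among them. The NRF1 motif, in 8 of 69 (11.6%), was held by 3.05% of all genes and 5.98% of tested genes, and the YY1 motif, also in 8 of 69, by 1.64% and 3.55%. The E-box and the TATA motif were each in 5 of 69 (7.25%), against 11.7% and 8.46% of tested genes. The ETS motif was in 15 of 43 large subunit windows and 11 of 26 small subunit windows. The median log2 fold change was 0.32 with the ETS motif and 0.32 without it, 0.28 with and 0.33 without the NRF1 motif, and 0.34 with and 0.32 without the YY1 motif. It was 0.35 with and 0.32 without the E-box, and 0.46 with and 0.31 without the TATA motif, each held by 5 genes. These are matches of letters, not binding sites.

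Large and small subunit genes had similar median fold changes. Among the 49 large subunit genes edgeR called 4 higher and 1 lower, leaving 44, and their median log2 fold change was 0.30. Of all genes tested, edgeR called 3.48% higher and 5.60% lower. An unadjusted p below 0.05 was found for 21 of the 49, against 32.5% of all genes tested. DESeq2 called 11 of the 49 higher and 3 lower, against 11.6% and 11.0% of all genes tested. Limma-voom called 3 higher and 1 lower, against 2.68% and 5.45%. Of the 29 small subunit genes, edgeR called 0, while 9 had an unadjusted p below 0.05, near the 32.5% of all genes tested. DESeq2 called 6 of the 29 higher and 0 lower, against 11.6% and 11.0% of all genes tested, and limma-voom called 0. Their median log2 fold change was 0.33. Fold changes ran over a wider range in the large subunit, from -0.55 to 1.45, than in the small subunit, where they ran from -0.30 to 0.94. A range tends to widen with the number of genes, here 49 against 29. The highest standard errors were 0.36 in the large and 0.31 in the small subunit. Without knockout replicate 2, 30 large subunit genes were higher and 3 lower, and 16 small subunit genes were higher and 0 lower. The shares of all genes tested were then 23.0% higher and 23.2% lower. In knockout replicates 1 to 3 the median log2 difference from the parental mean was 0.42, -0.02 and 0.48 for the large subunit and 0.40, 0.07 and 0.51 for the small subunit. In parental replicates 1 to 3 it was -0.01, -0.06 and 0.10 for the large subunit and -0.06, -0.06 and 0.08 for the small subunit. Assigning genes by structure, 51 to the large and 26 to the small subunit, left both medians within 0.01.

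**Figure D3:**
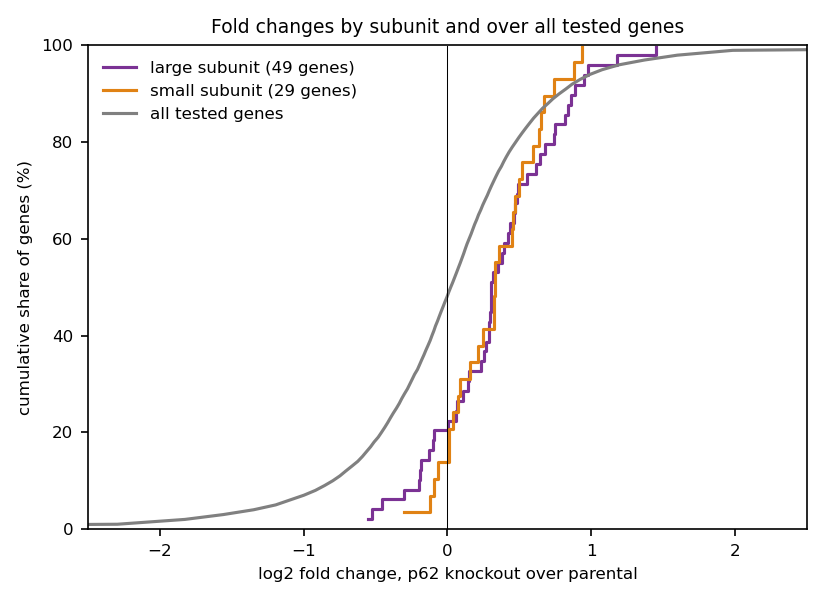
Cumulative share of genes (y axis, percent) at or below each log2 fold change, p62 knockout over parental (x axis), for 49 large subunit genes, 29 small subunit genes and all 12775 tested genes. Both subunit curves lie to the right of all tested genes around the middle and close to each other, with medians of 0.30 and 0.33 against 0.02.

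Genes of the large subunit with no bacterial homologue had a median log2 fold change of 0.43 (21 genes, 2 higher and 0 lower), against 0.28 for those with one (30 genes, 2 higher and 1 lower). The order was the other way round in the small subunit. There the median was 0.28 for the 10 genes without a bacterial homologue and 0.49 for the 16 with one, and edgeR called 0 in both sets, with 1 and 8 at an unadjusted p below 0.05. DESeq2 called 0 of the 10 and 6 of the 16, all higher, and limma-voom 0 of either. In the large subunit, 10 of the 21 without a bacterial homologue and 11 of the 30 with one had an unadjusted p below 0.05. DESeq2 called 7 higher and 1 lower of the 21, and 4 higher and 2 lower of the 30. Limma-voom called 1 higher of the 21, and 2 higher and 1 lower of the 30. Of all genes tested, edgeR called 3.48% higher and 5.60% lower, DESeq2 11.6% and 11.0%, and limma-voom 2.68% and 5.45%. An unadjusted p was below 0.05 for 32.5% of them. With knockout replicate 2 left out, edgeR called 4 of the 10 and 11 of the 16 higher. In the large subunit it then called 14 higher and 1 lower of the 21 genes without a bacterial homologue, and 16 higher and 2 lower of the 30 with one. Of all genes tested, 23.0% were then higher and 23.2% lower.

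Genes of the polypeptide exit site differed in direction. This group of 7 was put together with these values known. Mrpl24 was lower and Mrpl39 higher, as given above, and 5 did not pass. Over all genes tested, 3.48% were higher and 5.60% lower. Among the 7, 4 had an unadjusted p below 0.05 (32.5% of all genes tested). DESeq2 called 2 higher and 2 lower, against 11.6% and 11.0% of all genes tested. Limma-voom called 0 higher and 1 lower, against 2.68% and 5.45%. Mrpl23 encodes the homologue of L23, which in bacteria is a docking point for factors that receive the nascent chain. It had 23.3, 29.4 and 26.8 CPM in knockout libraries, against 43.7, 37.6 and 35.4 CPM in parental libraries, with no overlap (log2 fold change -0.55 ± 0.16, SE; edgeR adjusted p = 0.0675). Mrpl44, which encodes a protein related to RNase III, had 25.3, 26.2 and 25.7 CPM in knockout libraries, against 21.6, 17.2 and 18.4 CPM in parental libraries (edgeR adjusted p = 0.0983). It was one of the few in which knockout replicate 2 was not the lowest knockout library. Mrpl45 links the ribosome to the inner membrane in mammals. It had 78.6, 61.9 and 79.3 CPM in knockout libraries, against 74.0, 86.2 and 89.0 CPM in parental libraries, and the groups overlapped. The median of the 7 was -0.13, and without knockout replicate 2 it was -0.01, with 2 higher and 2 lower. Without that library, 23.0% of all genes tested were higher and 23.2% lower. Outside this group, Mrpl35, the homologue of L35, completed the 4 most negative fold changes of the large subunit. It had 33.1, 26.6 and 33.9 CPM in knockout libraries, against 33.2, 36.5 and 45.8 CPM in parental libraries, and the groups overlapped (edgeR adjusted p = 0.273).

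In the central protuberance, the top of the large subunit, 5 of 6 genes had positive fold changes and none passed the test in edgeR. An unadjusted p below 0.05 was found for 5 of them (32.5% of all genes tested). DESeq2 called 3 of the 6 higher and 1 lower, against 11.6% and 11.0% of all genes tested, and limma-voom called 0. EdgeR called 5 of the 6 higher and 1 lower when knockout replicate 2 was left out, against 23.0% and 23.2% of all genes tested. Mrpl18, the homologue of L18, stood at 69.8, 29.3 and 72.1 CPM in knockout libraries, against 22.6, 28.2 and 36.1 CPM in parental libraries. Knockout replicates 1 and 3 were well above the parental libraries, and replicate 2 was within their range (log2 fold change 0.98 ± 0.36, SE; edgeR adjusted p = 0.112). Mrpl40 had a like order of libraries, with knockout replicate 2 just above the parental ones. It had 44.5, 22.4 and 41.9 CPM in knockout libraries, against 16.7, 18.0 and 21.6 CPM in parental libraries (edgeR adjusted p = 0.0704). Mrpl38 encodes a protein related to phosphatidylethanolamine-binding proteins. It was the exception, with 83.0, 87.1 and 90.8 CPM in knockout libraries, against 105, 123 and 130.0 CPM in parental libraries and no overlap (edgeR adjusted p = 0.0671).

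The stalk, which recruits translation factors, is built from Mrpl10 and Mrpl12 on a base that includes Mrpl11. All 3 were higher without knockout replicate 2, where 23.0% of all genes tested were higher. With all libraries none of them passed the test, and 2 had an unadjusted p below 0.05 (32.5% of all genes tested). DESeq2 and limma-voom called 0. Mrpl12 had the highest level of all 78 genes, at 240.2, 165 and 272 TPM in knockout libraries, against 208, 181 and 155 TPM in parental libraries. The groups overlapped (edgeR adjusted p = 0.217). Mrpl11 had 54.2, 31.5 and 62.2 CPM in knockout libraries, against 28.8, 31.1 and 36.8 CPM in parental libraries (edgeR adjusted p = 0.152). Mrpl10 had 92.0, 75.8 and 90.8 CPM in knockout libraries, against 72.5, 64.1 and 62.7 CPM in parental libraries, with no overlap and a smaller fold change of 1.30 (edgeR adjusted p = 0.109).

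In the small subunit, the most positive fold changes belonged to Mrps11, Mrps6, Mrps28 and Mrps14, and none of the 4 passed the test. Mrps11, the homologue of S11 in the platform, had 25.1, 12.6 and 25.6 CPM in knockout libraries, against 9.69, 10.7 and 12.5 CPM in parental libraries. Knockout replicate 2 was only just above the highest parental library (log2 fold change 0.94 ± 0.29, SE; edgeR adjusted p = 0.0809). Mrps6, the homologue of S6, had 59.9, 31.0 and 61.6 CPM in knockout libraries, against 26.2, 26.0 and 30.8 CPM in parental libraries (edgeR adjusted p = 0.0793). Its unique reads were 76.1% of its reads, and it shares exon sequence with Slc5a3. Mrps28, the homologue of S1, stood at 16.2, 8.75 and 19.5 CPM in knockout libraries, against 10.5, 7.99 and 8.09 CPM in parental libraries (edgeR adjusted p = 0.149). Mrps14, the homologue of S14 in the head, had 46.1, 31.8 and 50.0 CPM in knockout libraries, against a tight 26.8, 27.2 and 26.3 CPM in parental libraries (edgeR adjusted p = 0.0679).

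At the other end were Mrps10, Mrps17, Mrps23 and Mrps31, with log2 fold changes between -0.30 and -0.07 and overlapping groups in all 4. Mrps10, the homologue of S10 in the head, had 43.4, 32.1 and 44.6 CPM in knockout libraries, against 43.8, 46.9 and 57.6 CPM in parental libraries (edgeR adjusted p = 0.285). Mrps17, the homologue of S17, had 62.7, 78.3 and 67.9 CPM in knockout libraries, against 69.5, 71.5 and 86.2 CPM in parental libraries. Mrps23, which has no bacterial homologue, had 53.7, 48.5 and 60.2 CPM in knockout libraries, against 52.5, 56.2 and 64.7 CPM in parental libraries. Mrps31 was nearly level, at 33.0, 35.0 and 32.6 CPM in knockout libraries, against 35.5, 33.0 and 37.0 CPM in parental libraries. Mrps12 encodes the homologue of S12 at the decoding centre. It had 30.7, 25.9 and 30.9 CPM in knockout libraries, against 22.2, 23.5 and 23.7 CPM in parental libraries, and the groups did not overlap (log2 fold change 0.33 ± 0.14, SE; edgeR adjusted p = 0.151). Of the 8 genes of the head, edgeR called 0, with 1 at an unadjusted p below 0.05, DESeq2 called 1 higher and limma-voom 0. Over all genes tested, 32.5% had an unadjusted p below 0.05, and DESeq2 called 11.6% higher and 11.0% lower. When knockout replicate 2 was left out, 3 of the 8 were higher and 0 lower, against 23.0% and 23.2% of all genes tested.

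The 3 paralogs related to bacterial S18 differed in their values. Mrps18c, which takes the place of S18, had 32.3, 22.3 and 36.2 CPM in knockout libraries, against 16.9, 16.3 and 26.7 CPM in parental libraries. Mrps18b, elsewhere in the small subunit, had 60.2, 57.1 and 63.8 CPM in knockout libraries, against 46.9, 49.1 and 60.0 CPM in parental libraries. Mrps18a, in the large subunit, had 37.6, 41.6 and 38.9 CPM in knockout libraries, against 36.7, 39.9 and 40.5 CPM in parental libraries. The log2 fold changes were 0.60 ± 0.27, 0.21 ± 0.14 and 0.01 ± 0.13 (SE) for Mrps18c, Mrps18b and Mrps18a, and none passed (edgeR adjusted p = 0.168, 0.33 and 0.956). The differences between the paralogs were not tested.

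Levels per exon length differed widely between genes of a single ribosome. The mean TPM over the 6 libraries ran from 9.77 (Mrpl48) to 203 (Mrpl12) in the large subunit, with a median of 67.2 TPM, and from 17.8 (Mrps25) to 144 (Mrps21) in the small subunit, with a median of 57.4 TPM. Mrpl38 and Mrpl34 followed Mrpl12, at 181 and 177 TPM, and Mrps18b and Mrps6 followed Mrps21, at 128 and 114 TPM. Mrpl34, the homologue of L34, had 159, 137 and 187 TPM in knockout libraries, against 164, 199.7 and 216 TPM in parental libraries. The groups overlapped. Mrps21, the homologue of S21, had 198, 122 and 197 TPM in knockout libraries, against 104, 117 and 127 TPM in parental libraries, so that knockout replicate 2 lay inside the parental range. At the low end, Mrpl48 had 11.9, 9.04 and 11.9 TPM in knockout libraries, against 9.16, 8.43 and 8.17 TPM in parental libraries, and Mrpl47, at the exit site, 17.6, 15.5 and 16.6 TPM in knockout libraries, against 13.4, 14.3 and 14.6 TPM in parental libraries. Both subunits thus held low genes, since Mrps25 had 25.1, 11.1 and 24.7 TPM in knockout libraries, against 14.8, 15.3 and 16.0 TPM in parental libraries. Mrps16, the homologue of S16, had 21.2, 13.6 and 22.3 TPM in knockout libraries, against 20.0, 17.1 and 21.0 TPM in parental libraries. The genes with the lowest values had long exon lengths in the files, 5469 bases for Mrpl48, 3364 for Mrpl47 and 6073 for Mrps25, against a shortest value of 491 bases among the members. TPM divides reads by that length, so a level can be low because rarely used exons are counted in the length.

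Summed over the 78 genes, the level was 6254, 4529 and 6461 TPM in knockout libraries, against 4949.9, 4947 and 5055 TPM in parental libraries. Knockout replicates 1 and 3 were above all parental libraries and replicate 2 below them, and the means were 5748 ± 1061 TPM in knockout and 4984 ± 61.4 TPM in parental cells (SD, n = 3 each). TPM values share a fixed total, and the cytoplasmic ribosomal proteins took 163367, 243702 and 173704 TPM of it in knockout libraries, against 218633, 197437 and 207077 TPM in parental libraries. Their part in the result was not tested.

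The ratio of summed large to summed small subunit TPM was 1.86, 1.84 and 1.94 in knockout libraries, against 2.04, 1.99 and 1.94 in parental libraries. Knockout replicate 3 and parental replicate 3 were almost equal, and the means were 1.88 ± 0.051 in knockout and 1.99 ± 0.048 in parental cells (SD, n = 3 each). The direction depended on the summary. With the median TPM of each subunit in place of the sum, the ratio was 1.12, 1.05 and 1.03 in knockout libraries, against 0.997, 1.03 and 0.994 in parental libraries. The summed ratio gives weight to abundant genes such as Mrpl38, which was at 146, 147 and 153 TPM in knockout libraries, against 191, 228 and 222 TPM in parental libraries.

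Many of the genes lie head to head with a neighbour. In the GENCODE M21 annotation (GRCm38), 33 of the 78 (42.3%) had a protein-coding gene on the other strand whose start was within 1000 bases, against 16.1% of 12456 tested protein-coding genes. Of these neighbours 31 were tested, and their median log2 fold change was 0.23. EdgeR called 2 of the 31 higher and 1 lower, against 3.48% and 5.60% of all genes tested. One such pair is made of 2 members, Mrpl46 of the large and Mrps11 of the small subunit. Both are therefore also counted among the 31 neighbours. Mrpl46 had 22.3, 15.4 and 25.5 CPM in knockout libraries, against 12.5, 12.6 and 12.8 CPM in parental libraries (edgeR adjusted p = 0.0687), a pattern close to that of Mrps11 above, and the 2 genes overlap in their exons. The neighbour of Mrpl49 is Fau, which encodes a fusion protein that contains a cytoplasmic ribosomal protein, with a log2 fold change of 0.55 (edgeR adjusted p = 0.16). Exons of 33 of the 78 genes overlapped another gene on either strand. Unique reads were under 99% of the total for 10 genes and 0 for Mrpl53, so the values of Mrpl53 are uncertain.

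The other parts of the machinery were described by lists. Of 5 ribosomal proteins whose symbols do not follow the Mrpl and Mrps scheme, 1 was higher, 4 did not pass, and all 5 had positive fold changes. Leaving out knockout replicate 2 gave 4 higher, where 23.0% of all genes tested were higher, against 3.48% with all libraries. Ptcd3, a pentatricopeptide repeat protein of the small subunit, stood at 122, 73.8 and 120.4 CPM in knockout libraries, against 59.4, 42.4 and 33.5 CPM in parental libraries. It rose 2.34-fold (log2 fold change 1.22 ± 0.28, SE; edgeR adjusted p = 0.0417), with no overlap between groups. Dap3, a GTP-binding protein of the small subunit, overlapped fully, at 86.6, 72.8 and 93.6 CPM in knockout libraries, against 90.0, 77.5 and 78.6 CPM in parental libraries.

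Of 29 assembly factors, 1 was higher, 0 lower and 28 did not pass, with a median log2 fold change of 0.08. With knockout replicate 2 left out, 8 were higher and 0 lower, and the median was 0.13. In that setting 23.0% of all genes tested were higher and 23.2% lower, against 3.48% and 5.60% with all libraries. The assembly factor called higher with all libraries was Ybey, whose bacterial homologue is an endoribonuclease of rRNA maturation. It had 7.18, 5.00 and 7.24 CPM in knockout libraries, against 3.30, 2.72 and 2.20 CPM in parental libraries (log2 fold change 1.24 ± 0.26, SE; edgeR adjusted p = 0.0368). Of 19 translation factors and partners, 0 were higher, 2 lower and 17 did not pass, with a median of 0.33. There were 6 higher and 2 lower without knockout replicate 2, against 23.0% and 23.2% of all genes tested. Oxa1l, which inserts newly made mitochondrial proteins into the inner membrane, had 48.0, 52.2 and 46.7 CPM in knockout libraries, against 73.4, 75.5 and 73.6 CPM in parental libraries. It fell 1.51-fold (log2 fold change -0.60 ± 0.12, SE; edgeR adjusted p = 0.0323). Mtres1, a factor that rescues stalled mitochondrial ribosomes, had 13.1, 12.3 and 12.4 CPM in knockout libraries, against 19.9, 19.4 and 21.8 CPM in parental libraries and fell 1.61-fold (edgeR adjusted p = 0.0356). Both were even across the knockout libraries, replicate 2 included. These 4 calls, of Ptcd3, Ybey, Oxa1l and Mtres1, were each lost without any 1 library other than knockout replicate 2.

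Other lists differed across the libraries too. The median log2 difference from the parental mean of the 6 MCM helicase genes, which load at replication origins, was 2.01, 0.46 and 2.02 in knockout replicates 1 to 3, against -0.35, -0.06 and 0.44 in parental replicates 1 to 3. Knockout replicate 2 was thus nearest to the parental libraries in that list as well, and 3 of the 6 were higher, or all 6 without it. Of all genes tested, 3.48% were higher with all libraries and 23.0% without knockout replicate 2. Mcm2 had 180.2, 106 and 175 CPM in knockout libraries, against 44.0, 43.9 and 54.7 CPM in parental libraries (edgeR adjusted p = 0.0139). Its call was lost without knockout replicate 1 or 3 or parental replicate 2 or 3. Mcm4 and Mcm7 showed the same order of libraries and were 3.58- and 2.62-fold higher (edgeR adjusted p = 0.0435 and 0.0464), calls lost without any 1 library other than knockout replicate 2. For 77 cytoplasmic ribosomal protein genes the order was the other way, at -0.29, 0.37 and -0.13 in knockout replicates 1 to 3, against 0.07, -0.13 and 0.06 in parental replicates 1 to 3. EdgeR called 0 of these 77, with 3 at an unadjusted p below 0.05, while DESeq2 called 3 higher and 0 lower and limma-voom 0. Those are smaller shares than over all genes tested. Of these, 32.5% had an unadjusted p below 0.05, and DESeq2 called 11.6% higher and 11.0% lower. Without knockout replicate 2, edgeR called 3 of the 77 higher and 22 lower, and their median log2 fold change was -0.25, against -0.01 with all libraries. In that setting 23.0% of all genes tested were higher and 23.2% lower. The smallest p in the list, with all libraries, was that of Rps27l, with 107, 71.7 and 114 CPM in knockout libraries, against 54.7, 42.4 and 62.9 CPM in parental libraries (edgeR adjusted p = 0.0566). The part of either list in the result for the mitochondrial ribosomal proteins was not tested.

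**Figure D4:**
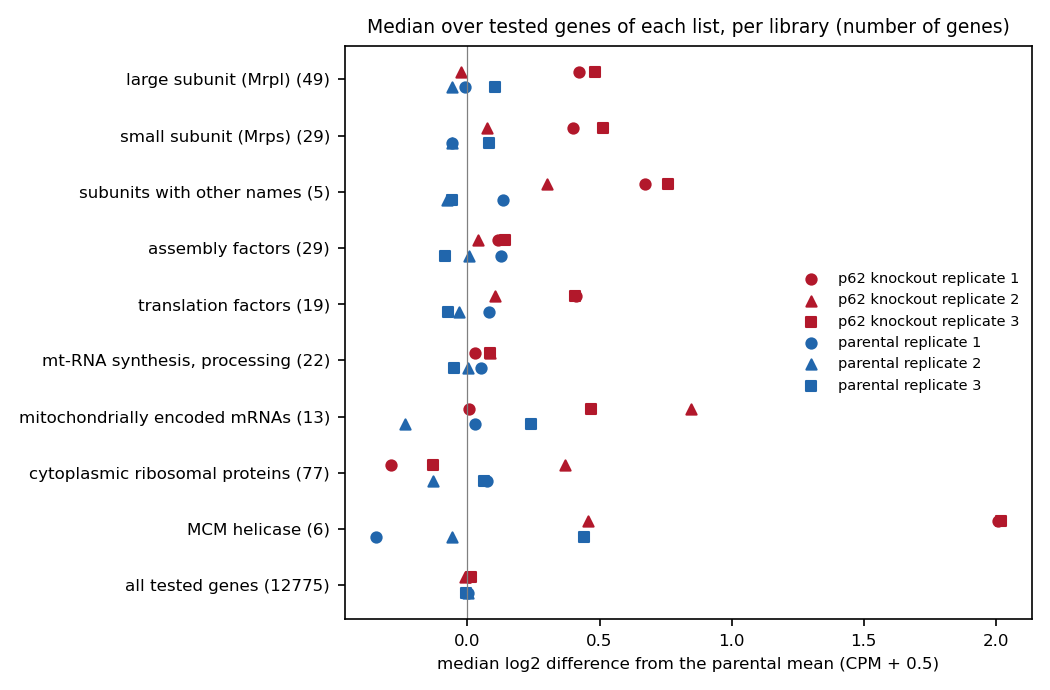
Median log2 difference from the parental mean (x axis, CPM plus 0.5) over the tested genes of each list, with a point per library, knockout libraries in red above parental libraries in blue. Both mitochondrial subunits lie at 0.40 to 0.51 in knockout replicates 1 and 3 and at -0.02 and 0.07 in replicate 2, while cytoplasmic ribosomal proteins lie at 0.37 in replicate 2 and below 0 in the other knockout libraries.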

How the data were processed

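Poly(A) RNA was made into directional paired-end libraries, per the labels' protocols, for 3 p62 knockout and 3 parental samples. Each deposited file lists total and unique exon read counts per gene, exon length and TPM, per the file headers. The authors' TPM values are total exon reads over exon length, and were recomputed from these columns. The genome build was GRCm39, per the submitters' processing notes. Not given in the sources used here are the gene annotation, whether counting used strand, and the programs used for mapping and counting.

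Total exon read counts were tested with edgeR 4.0.16 (R 4.3.3), using filterByExpr, TMM, the quasi-likelihood test with group only, and Benjamini-Hochberg adjustment over 12775 genes. Genes were called at an adjusted p below 0.05. The standard error is the log2 fold change over the square root of F. Tests were checked on simulated counts. DESeq2 1.42.0, limma-voom (limma 3.58.1), RLE and upper quartile scaling, 2 filters, unique reads, a replicate block and the loss of each library were alternatives. Libraries of the same group differed beyond counting noise in all 6 pairs tested, by a chi-square per degree of freedom of 7.77 between knockout replicates 1 and 3 and of 40.8 to 317 in the other pairs. Without knockout replicate 2, the knockout group is thus the closest pair. The labels do not say that replicates were separate cultures, so p-values may measure technical spread. A count of 0 allows up to 3 reads, or 0.0718 to 0.0914 CPM by library, for counting error only.

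The genes described and all lists were chosen with earlier results of these data known. Genes given in full were every called gene, the 4 highest and 4 lowest log2 fold changes and the 3 highest and 2 lowest TPM levels in each subunit, the S18 paralogs, and called members of each list, or else the member with the smallest p. Other members named for their role, and the groupings by position in the ribosome, were chosen after their values were seen. RefSeq promoters (GRCm38.p6) and GENCODE M21 gene positions (GRCm38) served for motifs and neighbours, and no coordinates of the deposited files were used.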

Additional observations from a re-analysis of the deposited data

How the results depend on the processing

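Medians of the log2 fold change kept their direction in every setting run: leaving out each library gave 0.25 to 0.43 for all 78 genes, 0.28 to 0.44 for the large subunit and 0.23 to 0.43 for the small subunit. Counts of calls did not hold. With DESeq2, 17 of the 78 genes were higher and 3 lower. The machinery lists hold 88 genes, made of 5 ribosomal proteins with other names, 29 assembly factors and 19 translation factors, with 2 more lists described below. Those are 22 genes of mitochondrial RNA synthesis and processing and 13 mitochondrially encoded mRNAs. DESeq2 called 18 of the 88 higher and 5 lower, against 4, mt-Nd1 and mt-Nd2 among them, and 2 with edgeR. Of all genes tested, DESeq2 called 11.6% higher and 11.0% lower, and edgeR 3.48% and 5.60%. Leaving out each library gave 0 to 46 higher and 0 to 3 lower of the 78, and 0 to 29 higher and 0 to 9 lower of the 88. The highest counts all came without knockout replicate 2, where 5973 genes of the whole table were called, and between 0 and 403 were called without any 1 other library. With no filter on low counts, 0 of the 78 were lower. Deviations of same-numbered libraries correlated at -0.37, -0.10 and 0.28 for replicates 1 to 3, with mixed signs. The replicate numbers are not known to pair the libraries. With the replicate number as a block, 1 of the 78 was higher and 0 lower, and 0 of the 88 were higher or lower. An unadjusted p below 0.05 was then found for 23 of the 78 and 24 of the 88. The share of all genes at that unadjusted p with the block is not given here. Genes called over the whole table fell to 257 with the block, against 1160 without it. The log2 difference in the summed large to small subunit TPM ratio was -0.08, and -0.11 to -0.07 without each library, but 0.087 with median TPM. Sqstm1 kept its direction, with log2 fold changes of -3.93 to -2.32 without each library, and missed the threshold with RLE scaling (-2.70, edgeR adjusted p = 0.0502), with the stricter filter (-2.72, edgeR adjusted p = 0.0547) and without any library other than knockout replicate 2. No called gene of the 78 changed sign in any setting. The causes of these changes were not tested. Each of the 78 genes had at least 265 total exon reads in each library, and the effect of read depth was not tested.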

Other observations

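The mRNAs that these ribosomes translate were read from poly(A)-selected RNA, in which their levels also depend on their tails. Of the 13 mitochondrially encoded mRNAs, 2 rose, 0 fell and 11 missed the threshold, with edgeR, and the median log2 fold change was 0.50. The median was 0.28, with 3 higher and 2 lower, when knockout replicate 2 was left out. Over all genes tested, 3.48% and 5.60% were higher and lower with all libraries, and 23.0% and 23.2% without that library. With all libraries, 3 of the 13 had an unadjusted p below 0.05, against 32.5% of all genes tested. The summed level of the 13 was 26925, 48120 and 37166 TPM in knockout libraries, against 42084, 38212 and 47479 TPM in parental libraries. Its mean was thus lower in knockout, at 37404 ± 10599 against 42592 ± 4654 TPM (SD, n = 3 each), although the median fold change was positive. mt-Nd1 had 871, 1349 and 1337 CPM in knockout libraries, against 711, 448 and 459 CPM in parental libraries (log2 fold change 1.14 ± 0.26, SE; edgeR adjusted p = 0.0428). mt-Nd2 had 409, 741 and 568 CPM in knockout libraries, against 242, 195 and 312 CPM in parental libraries (log2 fold change 1.20 ± 0.26, SE; edgeR adjusted p = 0.04). Both encode subunits of complex I, and both calls were lost without any 1 library other than knockout replicate 2. Directions differed between the mRNAs. mt-Co1, of cytochrome c oxidase, had 2429, 5109.7 and 3493 CPM in knockout libraries, against 5975, 5054 and 6279.9 CPM in parental libraries (log2 fold change -0.65 ± 0.30, SE; edgeR adjusted p = 0.182). Log2 fold changes were positive for 8 of the 13 and negative for 5.

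The order of the knockout libraries in this list differed from that in the ribosomal protein genes. The median log2 difference from the parental mean was 0.01, 0.85 and 0.47 in knockout replicates 1 to 3, against 0.03, -0.23 and 0.24 in parental replicates 1 to 3, so knockout replicate 2 was the highest here. Of 22 genes for mitochondrial RNA synthesis and processing, edgeR called 0, with 10 at an unadjusted p below 0.05 (32.5% of all genes tested). DESeq2 called 5 higher and 2 lower, against 11.6% and 11.0% of all genes tested, and limma-voom called 0. Without knockout replicate 2, edgeR called 8 of the 22 higher and 5 lower, against 23.0% and 23.2% of all genes tested. The smallest p was that of Polg2, which the list also holds although it encodes the accessory subunit of the mitochondrial DNA polymerase. Polg2 had 5.71, 6.52 and 7.03 CPM in knockout libraries, against 9.07, 10.3 and 11.7 CPM in parental libraries (log2 fold change -0.69 ± 0.19, SE; edgeR adjusted p = 0.0654).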
